A study of Mus musculus with 8 samples.

Results

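Border macrophage marker genes are 10 genes commonly used to tell the macrophages of the brain's borders (meninges, perivascular spaces and choroid plexus) from microglia: Mrc1, Dab2, Cd163, F13a1, Lyve1, Pf4, Cbr2, Stab1, Colec12 and Mrc2. They were taken by name, as 10 of the 32285 genes counted, and followed through the 2291 nuclei of the microglia table, which holds 5 labelled subpopulations: homeostatic microglia, amyloid-DAM, myelin-DAM, MyTE and macrophages. DAM are disease-associated microglia, found here mostly in plaque-bearing brains (amyloid-DAM) or in brains with defective myelin (myelin-DAM), and MyTE are microglial nuclei that also carry transcripts of myelin genes. The nuclei came from brain hemispheres, without olfactory bulb and cerebellum, of 6-month-old C57BL6/J mice of 4 genotypes with 2 libraries each. WT mice carried neither change, Cnp-/- mice lack CNP, a protein of non-compact myelin, 5xFAD mice carry human transgenes with familial Alzheimer's disease mutations that are expressed in neurons and lead to amyloid plaques, and Cnp-/- 5xFAD mice carry both. The Cnp deletion is not limited to a cell type. The study's reporting summary states that each replicate of its single-cell work pooled a pair of animals. Its methods describe such pooling for another dataset and do not mention it for these libraries, and the labels name no animals, so p-values measure only the spread between libraries, which may be technical.

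Macrophages at the borders of the brain arise largely from embryonic precursors, as microglia do, but sit next to vessels and meninges and keep a programme of endocytic and scavenger receptors. Most of the 10 genes belong to that programme. Mrc1 (the mannose receptor), Cd163 (the receptor for haemoglobin bound to haptoglobin), Stab1 (stabilin-1), Colec12 (a collectin of the scavenger receptor type), Lyve1 (a hyaluronan receptor) and Mrc2 (a collagen receptor of the mannose receptor family) are surface receptors. Dab2 is a clathrin adaptor, F13a1 encodes the catalytic subunit of coagulation factor XIII, Pf4 a chemokine and Cbr2 a carbonyl reductase. Microglia are known for other genes, such as P2ry12, Tmem119 and Sall1, and DAM turn on genes of lipid handling and phagocytosis, such as Lpl, Gpnmb and Itgax.

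The genes lie on 9 chromosomes of the mouse genome (GRCm38, GENCODE vM21): Mrc1 at chr2:14229392-14332057, Pf4 at chr5:90772435-90773383, Cd163 at chr6:124304656-124330527, Lyve1 at chr7:110850607-110863239, F13a1 at chr13:36867178-37050244, Stab1 at chr14:31139013-31168641, Dab2 at chr15:6299788-6440712 and Colec12 at chr18:9707595-9882644. Mrc2 (chr11:105292643-105351139) and Cbr2 (chr11:120729489-120732114) lie on the chromosome of the targeted Cnp gene, 4.70 Mb and 20.1 Mb from it. Differences between libraries with and without Cnp in these 2 genes cannot be told apart from those of linked strain sequence.

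Values are unique molecular identifiers (UMIs, 1 per captured RNA molecule), summed over the nuclei of a library and subpopulation and given as CPM, the share of that sum taken by the gene scaled to counts per 1000000 UMIs. CPM were compared for the same gene between nuclei and not between genes, since nuclear RNA is counted more often for long genes. The microglia table held 70 to 492 nuclei and 128533 to 828682 UMIs per library, and the macrophages 10 to 57 nuclei and 18335 to 133792 UMIs per library. As a check of the labels, Cnp was at 219 to 321 CPM in mature oligodendrocytes of the libraries with Cnp and at 23.15 to 32.8 CPM in those of the Cnp-/- and Cnp-/- 5xFAD libraries. No barcode of the microglia table occurred in 2 of its libraries, and 39 of its nuclei had a barcode also used in another library among all 61949 nuclei. Each nucleus carried 2 labels, a subpopulation and a cell type, and these differed on 39 nuclei. There were 205 macrophages by the first and 204 by the second, with 185 in both. The subpopulations were found by clustering the same counts, so that a gene's level in one subpopulation against another is described here without a test.

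RefSeq promoters on GRCm38.p6 (250 bases before to 50 after a transcription start) were at hand for 7 of the 10 genes, with 9 starts. Those of Mrc1 and of F13a1, the member whose profile was most like that of Mrc1 (its correlation is given below), are printed with that of Cd163 and with that of Stab1, which homeostatic microglia also express. Each runs 5′ to 3′ on the strand of its gene, and capitals mark GAGGAA or its reverse complement TTCCTC, the core to which ETS factors such as the macrophage regulator PU.1 bind.
Mrc1, chr2:14229164-14229463, + strand: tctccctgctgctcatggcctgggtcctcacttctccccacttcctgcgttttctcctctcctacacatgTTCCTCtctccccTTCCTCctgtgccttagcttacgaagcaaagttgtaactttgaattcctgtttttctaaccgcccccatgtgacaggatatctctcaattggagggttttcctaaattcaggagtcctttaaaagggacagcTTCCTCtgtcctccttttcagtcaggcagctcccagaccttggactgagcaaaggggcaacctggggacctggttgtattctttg
F13a1, chr13:37050195-37050494, − strand: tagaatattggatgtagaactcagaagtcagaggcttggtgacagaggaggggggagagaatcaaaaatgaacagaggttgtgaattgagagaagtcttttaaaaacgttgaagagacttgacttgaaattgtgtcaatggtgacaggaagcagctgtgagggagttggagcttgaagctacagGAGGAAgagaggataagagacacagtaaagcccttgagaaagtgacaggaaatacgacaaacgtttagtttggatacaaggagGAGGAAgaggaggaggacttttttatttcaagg
Cd163, chr6:124304401-124304700, + strand: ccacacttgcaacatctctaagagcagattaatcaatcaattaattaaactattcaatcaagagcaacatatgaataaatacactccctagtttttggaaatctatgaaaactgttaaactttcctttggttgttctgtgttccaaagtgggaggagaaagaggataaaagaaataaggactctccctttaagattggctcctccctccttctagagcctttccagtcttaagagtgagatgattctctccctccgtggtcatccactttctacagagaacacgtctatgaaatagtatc
Stab1, chr14:31168592-31168891, − strand: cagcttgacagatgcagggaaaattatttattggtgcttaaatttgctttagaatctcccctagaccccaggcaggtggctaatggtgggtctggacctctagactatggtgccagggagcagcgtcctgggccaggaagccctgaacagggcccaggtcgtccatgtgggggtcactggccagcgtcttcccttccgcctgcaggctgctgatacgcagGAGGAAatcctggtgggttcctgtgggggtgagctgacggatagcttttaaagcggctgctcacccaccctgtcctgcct
The Mrc1 window held 3 such cores, the F13a1 window 2, the Stab1 window 1 and the Cd163 window 0. At least 1 core stood in 8 of the 9 windows of the members and in 28.3% of all 32851 mouse promoter windows of this length. TGCTGA or its reverse complement TCAGCA, the core bound by MAF factors, stood in 3 of the 9 and in 19.5% of all, and the E-box CACGTG in 0 of the 9 and in 7.15% of all. None of these motifs contains another, and a match of letters says nothing of binding.

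Of the surface receptors, Mrc1 was near to restricted to macrophages. It was at 2509, 3015 and 5402 CPM in the lowest, median and highest of the 8 macrophage profiles (mean 3452 ± 1006, SD, n = 8) and at 0 to 24.3 CPM in homeostatic microglia, with no overlap. Pooled over libraries, its level was 91.4 times that of all microglia, and 92.0% of its UMIs in the table lay in macrophages. The ratio was 149 without 5xFAD replicate 1, and 353 on the nuclei whose labels agree, a choice that partly fixes it. At least 1 UMI was seen in 92.2% of macrophage nuclei (95% Wilson interval 87.7 to 95.1%, 189 of 205) and in 1.12% of homeostatic nuclei (11 of 982). Intervals here and below cover counting error only. Median depths were 1783 UMIs per macrophage nucleus and 1159.5 per homeostatic nucleus. With each nucleus thinned to 700 UMIs, the shares were 80.6% and 0.669%.

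Cd163 showed the same pattern with fewer UMIs. Its 8 macrophage profiles ran from 320 over a median of 728 to 1143 CPM, and no UMI was found in 982 homeostatic nuclei, which allows a detected share of up to 0.306%, or in 248 myelin-DAM nuclei, which allows up to 1.21%. Such a limit covers nuclei with a UMI and not nuclei that express the gene. It was seen in 55.1% of macrophage nuclei (48.3 to 61.8%). Lyve1 was the sparsest of the receptors with that pattern. All of its 36 UMIs in the microglia table lay in macrophages, in 25 nuclei (12.2%), at 0 to 186 CPM per library. Its macrophage level was at least 95.8-fold higher than that of the other 4 subpopulations together, set against 3 counts over the group. Without Cnp-/- 5xFAD replicate 1 this limit was 62.6-fold. The library without a Lyve1 UMI, Cnp-/- replicate 1, held 10 macrophage nuclei, so that a lower level there was not detectable at this depth.

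Stab1 and Colec12 were highest in macrophages but not restricted to them. Stab1 stood at 1771, 2432 and 2684 CPM (lowest, median, highest) in macrophages and at 198, 329 and 412 CPM in homeostatic microglia (means 2304 ± 384 and 324 ± 65.5, SD, n = 8 each), with 11.1 times the microglial level in macrophages and 30.9% of homeostatic nuclei positive. The 5 amyloid-DAM profiles of 10 or more nuclei were lower, at 69.1 to 103 CPM, as were the 4 myelin-DAM profiles at 106 to 156 CPM, and neither range reached the lowest homeostatic library. Among these 3 microglial subpopulations Colec12 was lowest in homeostatic microglia and highest in myelin-DAM: 0 to 13.5 CPM in the 8 homeostatic profiles, 27.9 to 295 CPM in amyloid-DAM and 170 to 461 CPM in myelin-DAM. The last 2 ranges overlapped through the amyloid-DAM profile of Cnp-/- replicate 1, with 6 Colec12 UMIs in 14 nuclei. The next highest was at 129 CPM. Amyloid-DAM of Cnp-/- replicate 2, left out with 5 nuclei, was at 590 CPM (4 UMIs). Myelin-DAM profiles came only from libraries without Cnp, so that this order partly mixes subpopulation with genotype. In the Cnp-/- 5xFAD libraries, which held both, Colec12 was at 129 and 48.4 CPM in amyloid-DAM and 404 and 461 CPM in myelin-DAM. The macrophage profiles of Colec12 ran from 99.4 to 1286 CPM and overlapped those of myelin-DAM. Cnp-/- replicate 1 (436 CPM, 8 UMIs) lay within the myelin-DAM range and WT replicate 2 (99.4 CPM, 4 UMIs) below it.

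Mrc2 went against its place among macrophage markers. It had 5 UMIs in the 205 macrophage nuclei (12.1 CPM pooled, 2.44% of nuclei, 1.046 to 5.58%) and was at 0 in 6 of 8 macrophage profiles. In microglia it was higher in each of the 8 libraries, with a pooled macrophage level of 0.142 times the microglial level (0.0914 without 5xFAD replicate 1). In WT replicate 2 and both Cnp-/- libraries the microglial level was only 22.7, 30.7 and 26.5 CPM. An equal level would hardly have been detected in their few macrophages, so that a 0 there does not set the direction. Amyloid-DAM carried 55.2% of the Mrc2 UMIs in the microglia table, at 49.2 to 262 CPM over 5 profiles, against 24.8 to 92.1 CPM in homeostatic microglia. These ranges overlapped through Cnp-/- replicate 1, whose amyloid-DAM profile held 1 Mrc2 UMI. Mrc2 is therefore described here by its name and not as a macrophage marker.

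Among the members that are not surface receptors, F13a1 had nearly all of its UMIs of the microglia table in macrophages (94.4%). Its macrophage profiles lay at 3389, 4059 and 5567 CPM (lowest, median, highest, with a mean of 4172 ± 737, SD, n = 8) and its homeostatic profiles at 0 to 17.0 CPM, a pooled 135-fold difference from all microglia. Without 5xFAD replicate 1 the difference was 234-fold, and on the nuclei whose labels agree 810-fold. It was found in 84.9% of macrophage nuclei and in 0.916% of homeostatic nuclei. The clathrin adaptor Dab2 was less specific: 2265 to 5042 CPM in macrophages, 40.3 times the level of all microglia (61.5 times on the nuclei whose labels agree), but 12.7 to 61.9 CPM in homeostatic microglia and 53.5 to 123 CPM in amyloid-DAM. It was seen in 10.1% of amyloid-DAM nuclei (7.89 to 12.8%) and 4.18% of homeostatic nuclei (3.09 to 5.62%). Pf4 and Cbr2 were seen in 20.5% and 21.5% of macrophage nuclei, and in 2 and 1 of the 982 homeostatic nuclei. Pf4 varied widely between macrophage profiles of the same genotype, with 106 and 646 CPM in WT and 54.5 and 669 CPM in Cnp-/-. The macrophage level was above that of the summed microglia in each of the 8 libraries for Mrc1, Dab2, Cd163, F13a1, Pf4, Cbr2, Stab1 and Colec12, and in 7 of the 8 for Lyve1.

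**Figure D1:**
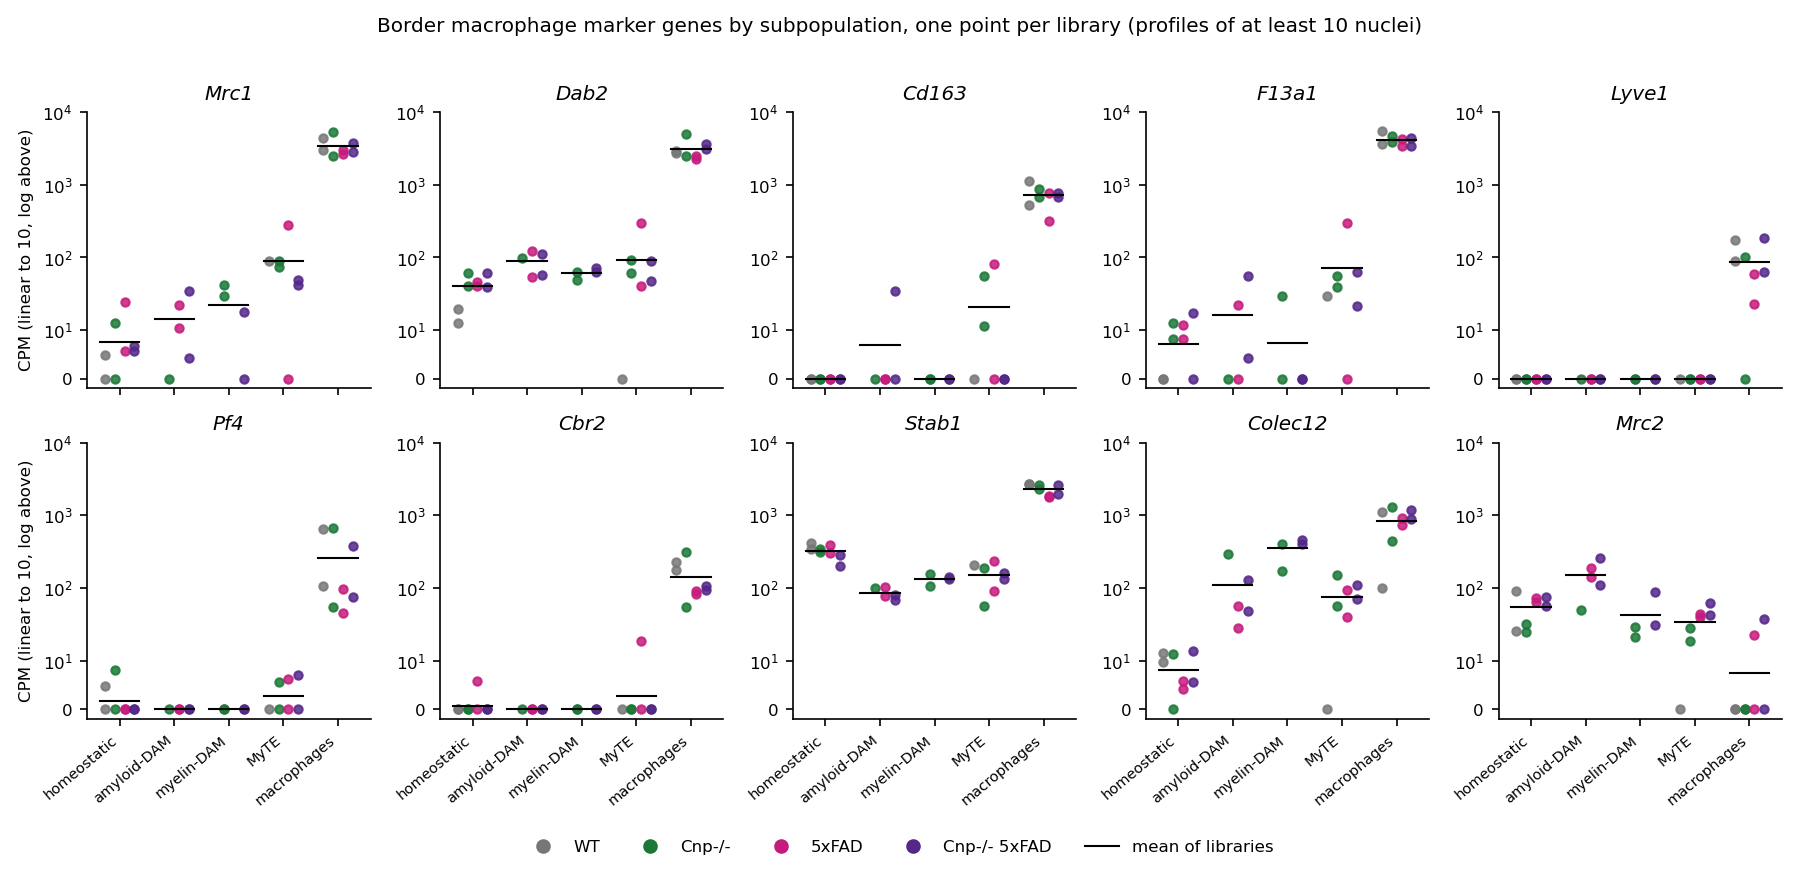
CPM of each gene (linear to 10, logarithmic above) in the summed nuclei of each library, by subpopulation, for profiles of at least 10 nuclei. Points are libraries coloured by genotype and lines are means. Macrophage points of Mrc1 lie at 2509 to 5402 CPM and above all others, Stab1 also stands at 198 to 412 CPM in homeostatic microglia, Colec12 at 170 to 461 CPM in myelin-DAM, and Mrc2 is lowest in macrophages.

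The genes were found together in the same nuclei. Of 205 macrophage nuclei 172 (83.9%, 78.3 to 88.3%) had UMIs of at least 4 of the 10 genes, with a median of 5 and a maximum of 9. Of the other 2086 nuclei, 14 did: 12 MyTE nuclei, 1 amyloid-DAM nucleus, 1 myelin-DAM nucleus and 0 of 982 homeostatic nuclei. Such counts rise with depth, and the 12 MyTE nuclei had a median of 3138 UMIs. Mrc1 was present in 100% of the macrophage nuclei with Cd163, Lyve1, Pf4 or Stab1 and in 98.9% of those with F13a1. Outside macrophages 56.5 to 60.3% of nuclei of each subpopulation had no member at all.

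At the other end, 9 macrophage nuclei had no member and 12 had only 1. These were largely the nuclei on which the labels disagreed: of the 20 nuclei in the macrophage subpopulation with the cell type label Microglia, 9 had none and 7 had 1. In those 20 nuclei F13a1, Stab1, Cd163 and Mrc1 were at 0, 0, 36.4 and 364 CPM, against 4265, 2341, 766 and 3392 CPM in the 185 nuclei on which both labels said macrophage. Median depth was 1320.5 UMIs in the former and 1870 in the latter. As both labels come from the same counts, these values describe the labels and do not test them.

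**Figure D2:**
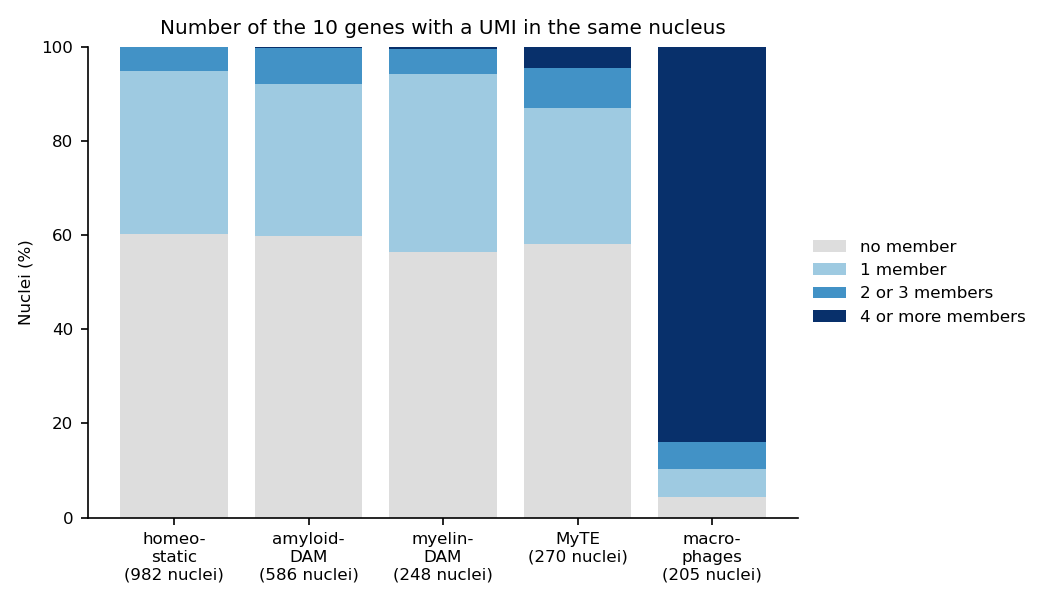
Share of nuclei (%) in which 0, 1, 2 or 3, or at least 4 of the 10 genes had a UMI, for each subpopulation. Macrophages had at least 4 in 83.9% of nuclei, MyTE in 4.44%, and homeostatic microglia in 0%.

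Within macrophages the members were not spread evenly. Some border macrophages are known to present antigen through MHC class II. A UMI of H2-Aa, H2-Ab1, H2-Eb1 or Cd74 was found in 53 of the 205 nuclei. Stab1 was detected in 47.2% of these 53 nuclei and in 93.4% of the other 152, Colec12 in 17.0% and 55.9%, Cd163 in 22.6% and 66.5%, and F13a1 in 56.6% and 94.7%. Mrc1 was detected in 83.0% and 95.4%, and Lyve1 in 9.43% and 13.2%. Median depths were close, at 1701 and 1815.5 UMIs per nucleus. The split was chosen after the values were known and is given as a description of these nuclei.

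In MyTE most members were found in few nuclei, with Mrc1 in 18 of 270, F13a1 in 13 and Cd163 in 5. Mrc1 was at 95.6 CPM in MyTE pooled over libraries, F13a1 at 83.0 CPM, Dab2 at 105 CPM and Cd163 at 20.7 CPM, above the 8.92, 7.30, 39.7 and 0 CPM of homeostatic microglia. Of the 12 nuclei with at least 4 members, 4.44% of the 270 (2.56 to 7.61%), 11 had the cell type label Macrophages. In the 15 MyTE nuclei with that label Mrc1 was at 1418 CPM, Dab2 at 1310, F13a1 at 1274 and Stab1 at 897.5 CPM. In the 255 MyTE nuclei with the label Microglia the values were 4.92 CPM for Mrc1 (4 UMIs), 22.2 for Dab2, 1.23 for F13a1 (1 UMI), 89.9 for Stab1 and 0 for Cd163, Pf4, Cbr2 and Lyve1. As the label was made from the same counts, leaving out the nuclei it calls Macrophages removes UMIs of these genes partly by construction. Colec12 was at 67.7 CPM in the 255 nuclei and at 233 CPM in the 15.

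By library, the MyTE signal was highest in 5xFAD replicate 1, with 278 CPM of Mrc1, 303 CPM of Dab2 and 296 CPM of F13a1. The other library of the same genotype, 5xFAD replicate 2, had 0, 40.2 and 0 CPM. Of the 15 MyTE nuclei with the label Macrophages, 6 came from 5xFAD replicate 1, which also held the most macrophages (57). Without that library the pooled MyTE values were 53.8 CPM for Mrc1, 59.5 for Dab2 and 34.0 for F13a1. In the WT libraries, with 11 and 3 MyTE nuclei, Mrc1 stood at 88.8 and 0 CPM. The Cnp-/- libraries had 90.1 and 74.4 CPM of it, the Cnp-/- 5xFAD libraries 42.4 and 48.9. For Mrc1 and F13a1 the pair of 5xFAD libraries spanned the values of all other libraries. MyTE also carried oligodendrocyte transcripts, with 10260 CPM summed over 6 markers against 366 CPM in macrophages, and in mature oligodendrocytes themselves 99.0% of nuclei had no member.

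**Figure D3:**
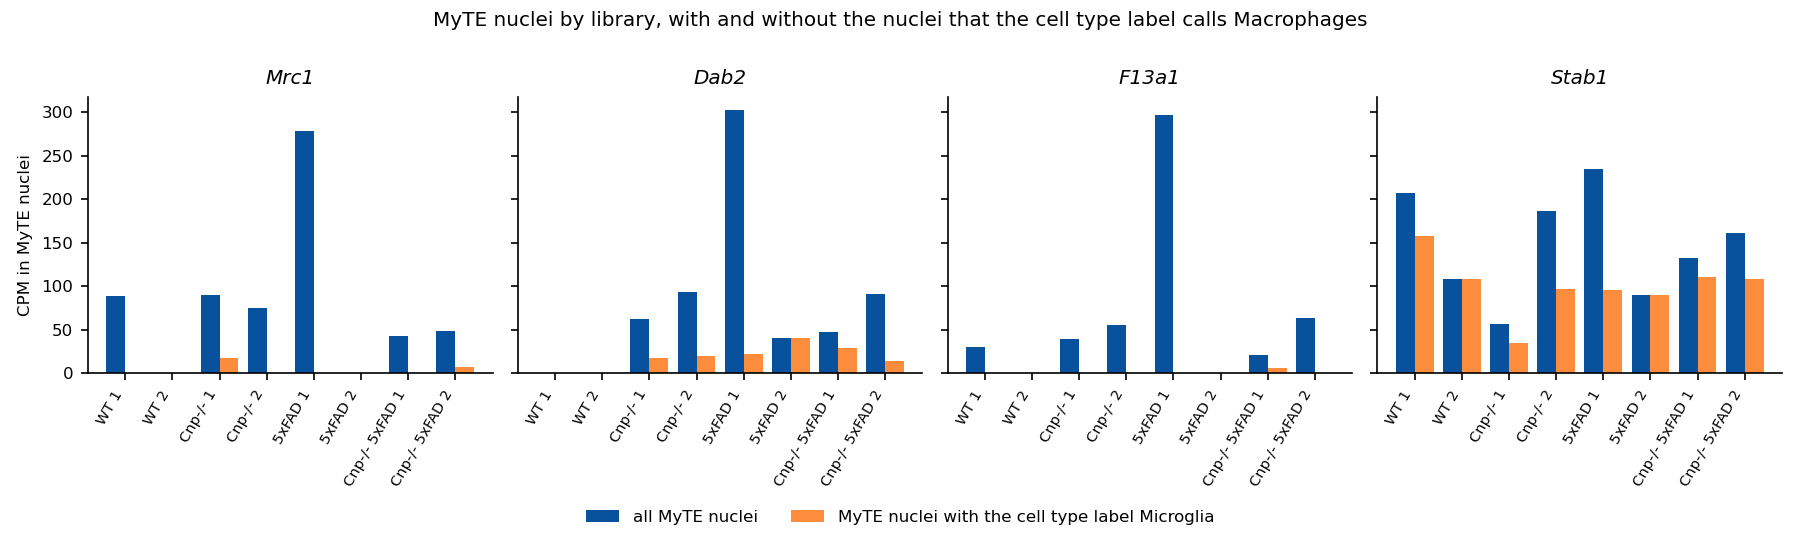
CPM of 4 members in the MyTE nuclei of each library (number after the genotype is the replicate), for all MyTE nuclei and for those with the cell type label Microglia. Mrc1, Dab2 and F13a1 reach 278, 303 and 296 CPM in 5xFAD replicate 1 and lie at 0 to 40.2 CPM without the nuclei labelled Macrophages, whereas Stab1 is left at 34.6 to 158 CPM.

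In the DAM subpopulations the macrophage-restricted members were rare. Pooled amyloid-DAM had 13 Mrc1 UMIs, 13 of F13a1, 5 of Cd163 and 0 of Lyve1, Pf4 and Cbr2 in 586 nuclei, and myelin-DAM had 8, 3, 0, 0, 0 and 0 in 248. Of the amyloid-DAM UMIs, 3 of Mrc1, 6 of F13a1 and 3 of Cd163 lay in 2 nuclei with the cell type label Macrophages. By share of nuclei, Mrc1 was seen in 1.71% of amyloid-DAM and 3.23% of myelin-DAM nuclei, and the intervals of both reached into that of homeostatic microglia (0.627 to 2.00%). The members that DAM nuclei did express were Colec12, Mrc2, Dab2 and Stab1. Colec12 was seen in 21.4% of myelin-DAM nuclei (16.7 to 26.9%), in 41 of 586 amyloid-DAM nuclei (5.20 to 9.35%) and in 0.713% of homeostatic nuclei (0.346 to 1.46%), and Mrc2 in 18.6% of amyloid-DAM nuclei (15.7 to 22.0%) but in 4.44% of myelin-DAM nuclei (2.49 to 7.77%). At 700 UMIs per nucleus the order of the 3 subpopulations was the same for Colec12, with 14.7, 4.56 and 0.446%.

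Colec12 is also a gene of mural and endothelial cells, so that their markers are given beside it. Summed over 6 endothelial markers, myelin-DAM stood at 460 CPM, amyloid-DAM at 221 CPM and homeostatic microglia at 98.9 CPM. Of the 460 CPM 435 were Flt1, with Pecam1 at 12.5, Cdh5 at 9.39 and Cldn5 at 3.13 CPM, and Kdr and Tek at 0. Cdh5 (3 UMIs) was highest in myelin-DAM. There 3 counts make 9.39 CPM, so that a 0 says little. The 6 mural markers summed to 56.3, 28.6 and 32.4 CPM in the same order. Of the 56.3 CPM in myelin-DAM 37.55 were Vtn (12 UMIs), which was highest there, and 2 of the 6 were at 0. Pooled over libraries, Colec12 was higher in myelin-DAM and Mrc2 in amyloid-DAM, and for both genes the ranges over libraries overlapped. The part of vascular RNA in these levels was not tested.

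The question of the 4 genotypes was asked of the summed microglia (all subpopulations but macrophages) with edgeR's quasi-likelihood test across 8185 genes, and a gene was called at an adjusted p below 0.05. The 5xFAD and Cnp comparisons use the same 8 libraries and share their samples. Of the members, 6 of 10 passed the filter on low counts (Mrc1, Mrc2, F13a1, Stab1, Dab2 and Colec12). After Cnp loss 1 of these 6 was called, in a comparison in which 1.59% of all genes tested were called (1.42% higher and 0.171% lower). The median log2 fold change of the 6 was 0.50 for Cnp loss, 1.07 for 5xFAD and -2.32 for the interaction, against 0.02, 0.05 and -0.06 over all genes tested. Mrc1, F13a1, Dab2 and Colec12 had 0 to 5 UMIs in each WT library and met the filter through libraries of other genotypes. This by itself can raise the first 2 medians and lower the third, so that they describe these 6 genes and are no support for a change of the group.

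Colec12 was the member that rose. It was at 8.20 and 11.3 CPM in WT (2 and 1 UMIs) and at 46.1 and 21.8 CPM in 5xFAD. Without Cnp it was at 134 and 111 CPM in Cnp-/-, and 131 and 91.4 CPM in Cnp-/- 5xFAD. With so few UMIs the WT level, and with it the size of a change, is known only roughly. All 4 libraries without Cnp lay above all 4 libraries with it, and the change was 2.73 on the log2 scale (SE 0.393, adjusted p = 0.0118 by edgeR). Without WT replicate 1 the change was 2.61 and the adjusted p 0.0868, while without any other library it was 0.0136 to 0.0445. Sums of markers of other cells also differed between these libraries in the summed microglia. The 6 endothelial markers summed to 86.05 and 102 CPM in WT, 135 and 107 in 5xFAD, 205 and 180 in Cnp-/-, and 270 and 168.5 in Cnp-/- 5xFAD, and the 6 oligodendrocyte markers to 1594 and 1291, 2386 and 2373, 5221 and 3003, and 2570 and 3137 CPM in the same order. In both sums all 4 libraries without Cnp lay above all 4 with it, while the 6 mural markers, at 8.20 to 58.7 CPM with Cnp and 18.3 to 95.5 CPM without, overlapped. Flt1 made up most of the endothelial UMIs in the microglia table (488, against 95 of Pecam1 and at most 10 of any other). It was at 45.4, 197 and 435 CPM in homeostatic microglia, amyloid-DAM and myelin-DAM, and Pecam1 at 47.0, 13.7 and 12.5 CPM. Of the 6 endothelial markers 4 and 3 were at 0 in WT, 1 and 1 in 5xFAD, 3 and 3 in Cnp-/-, and 1 and 2 in Cnp-/- 5xFAD. The 4 astrocyte markers summed to 0, 22.7, 7.20 and 26.1 CPM in the libraries with Cnp, and to 7.07, 138, 69.7 and 65.0 CPM in those without, where 3 of 4 lay above all libraries with Cnp. The 5 fibroblast markers, at 0 to 4.32 CPM with Cnp and 2.36 to 18.3 CPM without, also had 3 of 4 above. Each of these 5 had only 2 to 12 UMIs in the whole microglia table, so that their sums rest on few UMIs. The part of these markers in the Colec12 result was not tested. The Colec12 UMIs of the libraries without Cnp lay mostly in DAM and MyTE nuclei: of 78 Colec12 UMIs in Cnp-/- microglia 49 were in myelin-DAM, 18 in MyTE, 10 in amyloid-DAM and 1 in homeostatic nuclei, and of 137 in Cnp-/- 5xFAD microglia 65 were in myelin-DAM and 3 in homeostatic nuclei. Homeostatic microglia alone had too few Colec12 UMIs to be tested, with 0 to 13.5 CPM. A summed level moves with the mix of subpopulations, and fewer nuclei of a kind and less RNA per nucleus cannot be told apart in it.

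The other 5 tested members did not pass in any microglial comparison. For 5xFAD, 0 of the 6 were called where 0.391% of genes were (0.379% higher and 0.0122% lower), and for the interaction of Cnp loss with 5xFAD 0 of the 6 where 0.0489% were. At an unadjusted p below 0.05 there were 3 of 6 for 5xFAD, 3 of 6 for the interaction and 2 of 6 for Cnp loss, where 833, 713 and 1078 of the 8185 genes were. DESeq2 called 0 of the 6 for 5xFAD, 0 for the interaction and Colec12 alone for Cnp loss. Stab1 was at 385 and 317 CPM in WT, 235 and 168 in 5xFAD, 158 and 228 in Cnp-/-, and 131 and 169 in Cnp-/- 5xFAD. The WT libraries were the highest, with fitted log2 changes of -0.66 for Cnp loss (SE 0.195, adjusted p = 0.158 by edgeR) and -0.58 for 5xFAD (SE 0.196, adjusted p = 0.307). In homeostatic microglia alone these values were -0.38 and -0.30. Mrc2 was at 77.9 and 22.7 CPM in WT, 30.7 and 26.5 in Cnp-/-, 111 and 87.0 in 5xFAD, and 120 and 83.3 in Cnp-/- 5xFAD, with a fitted 5xFAD change of 1.28 (SE 0.349, adjusted p = 0.192 by edgeR). All 4 libraries with 5xFAD lay above the other 4, and of the 117 and 125 Mrc2 UMIs in 5xFAD and Cnp-/- 5xFAD microglia 77 and 79 were in amyloid-DAM. With no filter on low counts Mrc2 passed for 5xFAD, at 1.35 and adjusted p = 0.0324 by edgeR.

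Dab2 was lowest in WT, at 16.4 and 11.3 CPM, with 54.2 and 69.0 in Cnp-/-, 119 and 74.0 in 5xFAD, and 51.2 and 85.3 in Cnp-/- 5xFAD. Its fitted 5xFAD change was 1.42 (SE 0.381, adjusted p = 0.185 by edgeR) and its interaction -2.56 (SE 0.765, adjusted p = 0.334). Of the 117 Dab2 UMIs in 5xFAD microglia 53 lay in MyTE, 49 of these in 5xFAD replicate 1. Without nuclei of the cell type label Macrophages, which partly fixes these values, the 5xFAD value was 1.26 and the interaction -1.68, with neither passing. Mrc1 and F13a1, at 0 to 79.15 and 0 to 71.95 CPM over the 8 microglial profiles, were highest in 5xFAD replicate 1, and their fitted changes had standard errors of 0.728 to 1.74.

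In macrophages no member passed the test for genotype. The fit over 1513 genes held 8 of the 10 members (Lyve1 and Mrc2 had too few UMIs), and 0 of 8 were called for 5xFAD, where 0.132% of genes were, and 0 of 8 for Cnp loss, where 0% were. At an unadjusted p below 0.05 edgeR gave 1 of 8 for 5xFAD and 0 of 8 for Cnp loss, and over all genes 74 and 61. DESeq2 called 0 genes in both. Mrc1 was at 3057 and 4374 CPM in WT, 2668 and 2974 in 5xFAD, 2509 and 5402 in Cnp-/-, and 2812 and 3815 in Cnp-/- 5xFAD. Both 5xFAD libraries lay below both WT libraries, while the Cnp-/- and Cnp-/- 5xFAD libraries overlapped each other. Its 5xFAD value was -0.27 (SE 0.246) and its Cnp value 0.15 (SE 0.246). F13a1 was at 3693 and 5567 CPM in WT, 3453 and 4300 in 5xFAD, 3818 and 4682 in Cnp-/-, and 4470 and 3389 in Cnp-/- 5xFAD. The 5xFAD values of the 8 members ran from -1.35 (Pf4, SE 0.635) to 0.36 (Colec12, SE 0.411) and the Cnp values from -0.06 (F13a1, SE 0.221) to 0.73 (Pf4, SE 0.631), all with adjusted p of at least 0.958 by edgeR. With SEs from 0.207 to 0.688 a moderate change of these genes was not detectable at this depth. Without WT replicate 1, WT is left with replicate 2 alone, assumed to vary like the other groups, and Colec12 then passed for 5xFAD (1.66, adjusted p = 0.0033 by edgeR) and for Cnp loss (1.67, 0.00984), as did Pf4 for 5xFAD (-1.79, 0.0033). Colec12 stood at 1113 CPM in WT replicate 1 and at 99.4 CPM in WT replicate 2.

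**Figure D4:**
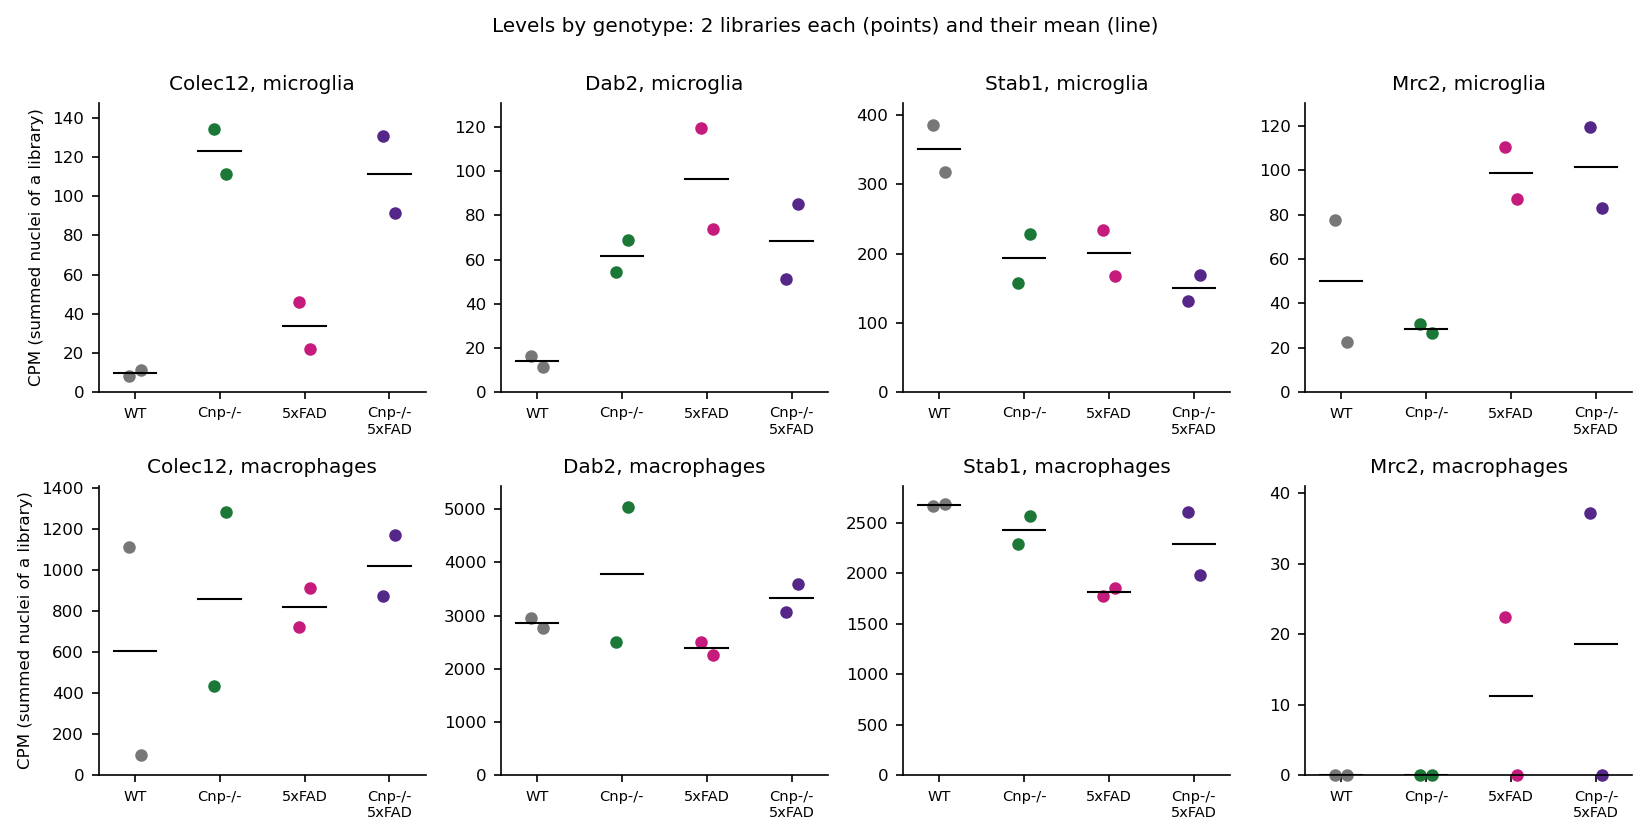
CPM of 4 members in the summed microglia (top) and macrophages (bottom) of each library, with the 2 libraries of a genotype as points and their mean as a line, and axes start at 0. Colec12 in microglia lies at 91.4 to 134 CPM in the 4 libraries without Cnp and at 8.20 to 46.1 CPM in the other 4, while its macrophage values overlap.

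Within the DAM subpopulations, 4 members (Mrc2, Stab1, Dab2 and Colec12) passed the filter in a fit of 3919 genes. None of the 4 was called for Cnp loss within amyloid-DAM or for 5xFAD within myelin-DAM, and 0% of all genes were in either. At an unadjusted p below 0.05 edgeR gave 0 of the 4 in both, 118 of all genes in the first and 242 in the second, and DESeq2 called 2 and 3 genes. Colec12 in amyloid-DAM was at 57.1 and 27.9 CPM in 5xFAD and 129 and 48.4 CPM in Cnp-/- 5xFAD, with a fitted change of 1.07 (SE 0.542, adjusted p = 1.0 by edgeR), and the groups overlapped. Colec12 in myelin-DAM was at 399 and 170 CPM in Cnp-/- and 404 and 461 CPM in Cnp-/- 5xFAD, with a fitted change of 0.47 (SE 0.443, adjusted p = 0.933). Mrc2 in amyloid-DAM was at 186 and 140 CPM in 5xFAD and 262 and 111 CPM in Cnp-/- 5xFAD, with a fitted change of 0.24 (SE 0.405).

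Outside the microglia table the members were followed through the other cell types of the brain. Neurons, not known for these genes, were taken for comparison, at a median of 9105 UMIs per nucleus. Mrc1 was seen in 0.600% of neurons, F13a1 in 3.38%, Cd163 in 1.02%, Pf4 in 0.0510%, Cbr2 in 0.0997% and Lyve1 in 0.0864%. Colec12 was seen in 7.67% of neurons, Mrc2 in 7.22%, Dab2 in 2.80% and Stab1 in 1.47%. At 700 UMIs per nucleus the neuronal shares of Mrc1 and F13a1 were 0.0443% and 0.204%, against 80.6% and 78.1% of macrophages. Homeostatic microglia stood at 0.669% and 0.334%. Thinned neuronal shares were 0.742% for Colec12, 0.432% for Mrc2, 0.217% for Dab2 and 0.106% for Stab1. The interval of the 0.446% of homeostatic microglia for Colec12 (0.174 to 1.14%) held the neuronal share, which was below the 4.56% of amyloid-DAM and 14.7% of myelin-DAM. In nuclei labelled MOL (mature oligodendrocytes), with a median of 1515 UMIs, the thinned Colec12 share was 0.0937% (0.0400 to 0.219%), below that of neurons, and its interval overlapped that of homeostatic microglia. For Mrc2 the thinned share was 11.7% in amyloid-DAM.

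Dab2, Colec12, Mrc2 and Stab1 were found in vascular and glial nuclei. Colec12 was at 826 to 1652 CPM in pericytes over the 8 libraries and in 71.15% of 260 pericyte nuclei, which overlapped the 99.4 to 1286 CPM of macrophages. Mrc2 was at 163 to 394 CPM in pericytes, which overlapped its 49.2 to 262 CPM in amyloid-DAM, and was seen in 28.85% of pericyte nuclei. Dab2 was seen in 37.8% of endothelial nuclei (109 to 153 CPM), 20.4% of newly formed oligodendrocytes (NFOL) and 18.6% of oligodendrocyte precursors (OPC), but in 0.249% of mature oligodendrocytes (MOL). Stab1 was seen in 17.3% of endothelial nuclei, at 37.8 to 56.8 CPM. At least 4 members were found in 51 of 1667 endothelial nuclei (3.06%) and in 0 of 260 pericyte nuclei. Pericytes had 1 UMI of Mrc1 and 1 of Cd163 and none of F13a1, Pf4, Cbr2 and Lyve1 in 260 nuclei, which allows a detected share of up to 1.15% for each of these 4. As Lyve1, Pf4 and Cbr2 were missed in most macrophage nuclei too, this does not limit how many pericytes express them.

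**Figure D5:**
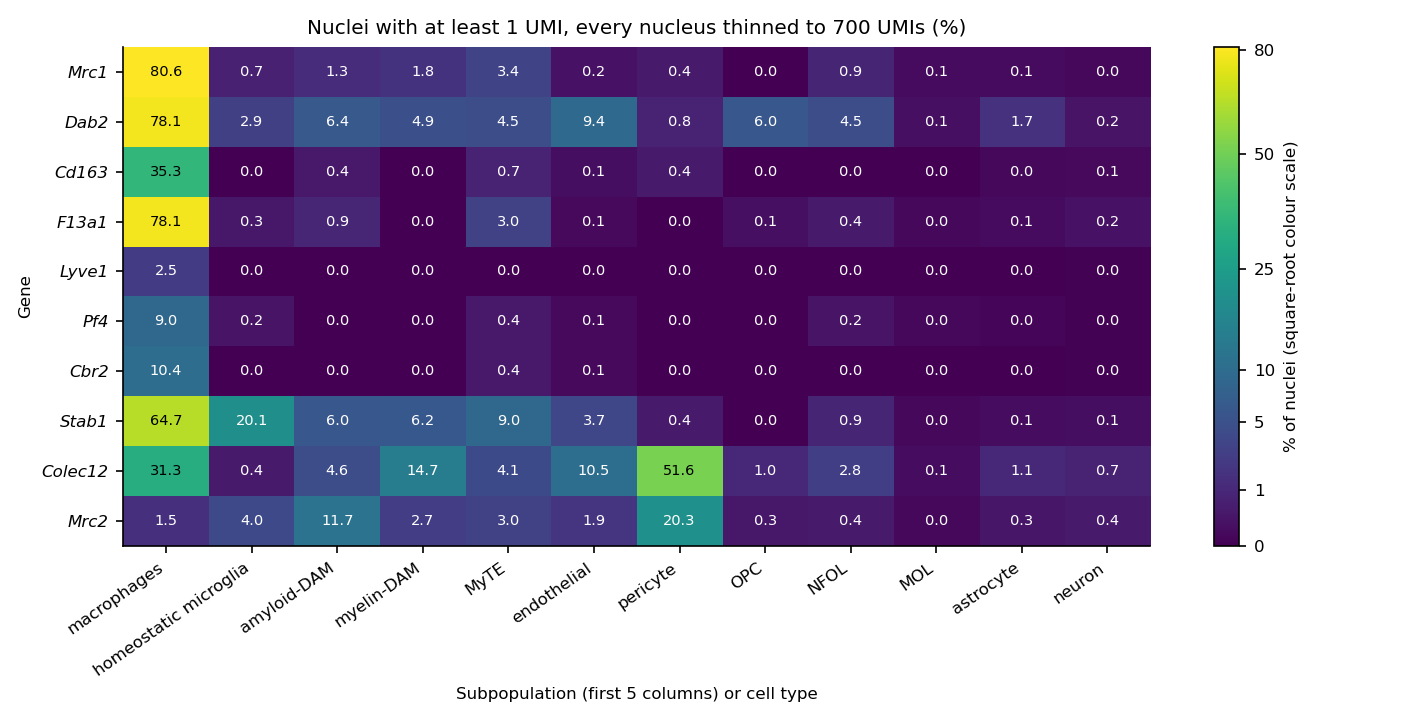
Share of nuclei (%) with at least 1 UMI of each gene after thinning every nucleus to 700 UMIs, by subpopulation (first 5 columns) and cell type, with colour on a square-root scale. Mrc1, F13a1 and Cd163 stand out in macrophages only (80.6, 78.1 and 35.3%), while Colec12 reaches 51.6% and Mrc2 20.3% in pericytes.

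Other genes followed the members. Over 32 profiles of at least 10 nuclei, the 10 of 8302 genes with the highest Pearson r to the summed members, on log2(CPM + 10), were Tslp (0.977), F630028O10Rik (0.973), Cd209f (0.971), Rbpj (0.962), Cd209a (0.962), Cd209b (0.961), Cd209g (0.960), Clec10a (0.956), Nlrc4 (0.951) and Cd38 (0.951). The profiles share libraries, and the clusters were made from these genes, so that the order is a description. Tslp, a cytokine gene, was at 145 CPM in macrophages and 1.52 CPM in microglia, and Rbpj, the DNA-binding effector of Notch signalling, at 3734 and 192 CPM. Cd209a, Cd209b, Cd209f and Cd209g, lectins of the DC-SIGN family, were at 128, 187, 245 and 233 CPM in macrophages and at 0.607 to 1.82 CPM in microglia. Among the members themselves, r to the sum of the other 9 was 0.878 to 0.969 for Mrc1, Dab2, Cd163, F13a1, Lyve1, Pf4 and Cbr2, 0.797 for Stab1, 0.635 for Colec12 and -0.71 for Mrc2. The pair with Mrc1 was closest for F13a1 (0.979).

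Of a list of 22 other border macrophage genes, all 22 were highest in macrophages, though some were well expressed in microglia. Others had few UMIs in the microglia table, such as Fcna with 3 and Folr2 with 22. The share of all genes highest in macrophages is not given here, so that the count is a description. The 22 genes summed to 4200 to 8180 CPM per library in macrophages, against 1076 to 1420 CPM in homeostatic microglia. Of its 4 genes with the most UMIs, the transcription factor gene Maf was at 1434 CPM in macrophages and 565 CPM in homeostatic microglia, Hpgd (prostaglandin breakdown) at 405 and 365, the iron exporter Slc40a1 at 288 and 149, and Gas6, a ligand of the receptor Axl, at 325 and 80.3 CPM. Of the 22, 8 were tested in microglia and 13 in macrophages, with 0 called in each of the 7 comparisons and medians of -0.34 to 0.20 on the log2 scale. At an unadjusted p below 0.05 edgeR gave 6 of the 8 for Cnp loss in microglia, where 1078 of all 8185 genes were, with 0.108 as the smallest adjusted p in the list. It gave 3 of 8 for 5xFAD and 0 of 8 for the interaction in microglia, and at most 1 in each of the other 4 comparisons. Of 12 microglia identity genes, 1 was highest in macrophages, Fcrls, at 376 CPM against 292 CPM in homeostatic microglia. Tmem119 and Sall1 were at 4.85 and 14.5 CPM in macrophages and 129 and 339 CPM in homeostatic microglia, whereas P2ry12, at 540 and 1074 CPM, and Cx3cr1, at 296 and 1155 CPM, were left at a lower level. In the same fits 12 of the 12 identity genes were tested in microglia, with 1 lower after Cnp loss (Siglech, -0.72, adjusted p = 0.0408 by edgeR) and 0 called for 5xFAD. Over all genes 1.59% and 0.391% were called. At an unadjusted p below 0.05 edgeR gave 8 of the 12 for Cnp loss and 3 for 5xFAD, where 1078 and 833 of all 8185 genes were. For Cnp loss the median of the 12 was -0.57 against 0.02 over all genes. The 12 summed to 6847 CPM in homeostatic microglia, 4497 in amyloid-DAM, 3564 in myelin-DAM and 2303 in MyTE. MyTE were 59 of 262 and 20 of 125 microglial nuclei in Cnp-/-, and 11 of 168 and 3 of 51 in WT. The part of this mix in the changes was not tested.

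Of 7 MHC class II genes 5 were highest in macrophages, with 201 CPM of Cd74 and 128 CPM of H2-Eb1 against 4.05 and 1.62 CPM in homeostatic microglia. H2-DMa and H2-DMb1 were at 36.3 and 24.2 CPM in macrophages and 48.6 and 24.3 CPM in homeostatic microglia. Of the 7 DAM genes measured, 0 were highest in macrophages. Lpl was at 19.4 CPM in macrophages, 253 in amyloid-DAM and 216 in myelin-DAM, and Axl at 58.2, 191 and 285 CPM. In microglia, where 5 of them were tested, Csf1 and Lpl rose with both Cnp loss (2.29 and 2.64, adjusted p = 0.0443 and 0.0207 by edgeR) and 5xFAD (3.12 and 2.90, 0.0115 and 0.0177), the other 3 not passing in either. Colec12 was called for Cnp loss and not for 5xFAD (0.87, SE 0.425, adjusted p = 0.538 by edgeR), and the difference between these responses was not tested. Its interaction, the 5xFAD change without Cnp minus that with Cnp, was -2.08 (SE 0.844, adjusted p = 0.506 by edgeR). Markers of other cells in the macrophage profiles varied between libraries. The 6 oligodendrocyte markers summed to 0 CPM in both Cnp-/- libraries, 561 CPM in 5xFAD replicate 1 and 1236 CPM in Cnp-/- 5xFAD replicate 2, and 24.9 to 186 CPM in the other 4, and the 6 endothelial markers to 0 to 256 CPM. Their part in the macrophage values was not tested. The 8 markers of monocytes, granulocytes and lymphocytes summed to 0 to 199 CPM per library, with 5 of the 8 at 0 and Ccr2 at 89.7 CPM, and 4 neuronal markers to 0 to 49.7 CPM.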

How the data were processed

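Single-nucleus RNA-seq (10x 3′) of 8 mouse brain libraries was used. The authors deposited UMI counts per nucleus with their own subpopulation and cell type labels. Cell Ranger 6.1.2 and mm10 are named in the submitters' processing notes, and the study's methods name CellBender for removal of ambient RNA and Seurat for clustering. Intron counting and doublet handling were not given in the sources used here.

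Counts were summed per library and subpopulation. Genotypes were compared with edgeR 4.0.16 (quasi-likelihood test, filter on low counts, TMM, Benjamini-Hochberg, adjusted p below 0.05) in R 4.3.3. The 5xFAD value is the mean of both 5xFAD genotypes over the mean of the other 2, and likewise for Cnp loss. The DAM fit used profiles of at least 20 nuclei. DESeq2 1.42.0 was an alternative. The steps were tested on simulated data. Means and ranges by subpopulation use profiles of at least 10 nuclei, and a share of 0 is given with the limit of 3 counts. Shares have Wilson intervals, and thinned shares use nuclei with at least 700 UMIs.

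The members, lists and tests were chosen with earlier results of these data known. All 10 members are named, with the 4 genes of each list that have the most UMIs in the microglia table and the 10 genes most like the summed members among those with at least 50 UMIs. Fcrls, Tmem119, Sall1, Kdr, Tek, Fcna and Folr2 were named after their values were seen. Leaving out nuclei by their cell type label, and taking the ratios on nuclei with agreeing labels, were chosen after seeing the data. Clec7a was not analysed here.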

Additional observations from a re-analysis of the deposited data

Results flagged for a closer look

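In MyTE, 5xFAD replicate 1 stood apart from the other 6 libraries with at least 10 MyTE nuclei for 3 members, by a gap to the next library larger than Dixon's critical value of 0.568 for 7 samples. Dab2 was at 302.6 CPM there and at 92.97 CPM in the next library, F13a1 at 296.4 and 62.86 CPM, and Mrc1 at 277.9 and 90.07 CPM. Of the 47 MyTE nuclei of this library 6 had the cell type label Macrophages, and in its other 41 nuclei these genes were at 22.2, 0 and 0 CPM, a choice of nuclei that partly fixes these values. In all 24 sets of libraries were examined. A chance rate of about 1 in 20 holds for independent, normally distributed values, which sparse counts with several 0 values need not be. The 3 flagged values come from the same library and are not independent.

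The table of all nuclei held 181 nuclei labelled Microglia that are not in the microglia table. Its labels have no class for macrophages, so that Microglia there covers macrophages as well. Of the 181 nuclei, 26 (14.4%) had UMIs of at least 4 members, and 15.5% had Mrc1, 14.4% F13a1 and 53.0% Colec12. Over all 2472 nuclei with that label, at a median of 1395 UMIs, these shares were 8.58, 10.7, 9.26 and 12.7%. The median depth of the 181 was 3880 UMIs per nucleus, and they entered no comparison.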

How the results depend on the processing

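The number of called genes moved by more than 1.5 times as follows. For 5xFAD in microglia (32 genes), no filter on low counts gave 264, DESeq2 126 and homeostatic microglia only 3. For Cnp loss in microglia (130), no filter gave 377, DESeq2 239, leaving out MyTE 32 and homeostatic microglia only 5. For the interaction (4), the values were 8 with the size factors of DESeq2, 131 with no filter, 69 with DESeq2, 1 without MyTE and 0 in homeostatic microglia only. For 5xFAD in macrophages (2), no filter gave 18, DESeq2 0 and leaving out nuclei with the cell type label Microglia 0. For Cnp loss in macrophages (0), no filter gave 1. For Cnp loss in amyloid-DAM (0), no filter gave 10 and DESeq2 2, and for 5xFAD in myelin-DAM (0) 11 and 3. The cause was not tested.

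The replicate numbers shared between genotypes do not pair the libraries: deviations of same-numbered libraries correlated at -0.0586 to 0.0824, apart from 0.46 between the amyloid-DAM and myelin-DAM profiles of the same Cnp-/- 5xFAD libraries. With a replicate block Colec12 after Cnp loss was at 2.79 (adjusted p = 0.0141 by edgeR), the interaction gave 1 called gene, Cnp loss in macrophages 1 and 5xFAD in myelin-DAM 1, and Cbr2 after Cnp loss in macrophages turned to -0.033.

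Leaving out 1 library at a time gave 19 to 48 called genes for 5xFAD in microglia, 22 (without WT replicate 1) to 132 for Cnp loss, 1 to 16 for the interaction, 0 to 22 for 5xFAD and 0 to 8 for Cnp loss in macrophages (the higher both without WT replicate 1), and 0 to 2 in each DAM comparison. Colec12 after Cnp loss in microglia ranged from 2.54 to 3.06. Members that crossed 0 on the log2 scale were, for 5xFAD in macrophages, Cd163 (-0.64 to 0.17), Colec12 (-0.000593 to 1.66), Dab2 (-0.35 to 0.21), F13a1 (-0.27 to 0.10), Mrc1 (-0.48 to 0.13) and Pf4 (-2.12 to 0.068). For Cnp loss in macrophages they were Cbr2 (-0.90 to 0.37), Cd163 (-0.20 to 0.50), Colec12 (-0.18 to 1.67), F13a1 (-0.23 to 0.072), Mrc1 (-0.25 to 0.35), Pf4 (-0.70 to 1.56) and Stab1 (-0.060 to 0.16). In microglia they were Mrc1 for 5xFAD (-0.62 to 3.17) and for Cnp loss (-0.13 to 3.04), and Mrc2 for Cnp loss (-0.66 to 0.26) and the interaction (-0.42 to 1.43). In DAM they were Dab2 (-0.57 to 0.61) and Mrc2 (-0.61 to 0.69) for Cnp loss in amyloid-DAM, and Stab1 for 5xFAD in myelin-DAM (-0.19 to 0.39). None of the members in this list was called in the comparison named, except Colec12 and Pf4 without WT replicate 1.

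With no filter, Dab2 (0.0011) and F13a1 (0.031) turned for 5xFAD in macrophages, as did Cd163 (-0.058), Cbr2 (-0.13) and Stab1 (-0.051) for Cnp loss in macrophages and Stab1 (-0.0099) for 5xFAD in myelin-DAM. The interaction of Stab1 was -0.30 in homeostatic microglia only. Macrophages numbered 10 to 57 nuclei per library, so that members with few UMIs there (Lyve1, Pf4, Cbr2, Mrc2) are known only within wide errors.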
